A study of Drosophila melanogaster with 12 samples.

Results

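Oxidative phosphorylation was followed through 17 nuclear genes that encode subunits of complexes I, III and IV, cytochrome c and the ATP synthase, in adult *Drosophila melanogaster* females with a conditional knockout of *ERR*. The genes were chosen by name from the 17558 genes of the count table: those whose deposited name began with a set prefix (ND followed by a hyphen or a digit, UQCR, COX and a digit, CoV, Cyt-c or ATPsyn), together with *RFeSP* and *blw*. Complex II and the subunits encoded by the mitochondrial genome were left out of the choice. The count table uses older gene symbols, so most other nuclear subunits, such as *NDUFS3*, *CoIV* and *Oscp*, stand in it under names without these prefixes. A further 73 of them were reached through their gene identifiers and current symbols, after the files had been seen, and are given beside the 17 for comparison.

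The respiratory chain passes electrons from NADH through complex I, from ubiquinol through complex III and cytochrome c, and on to oxygen at complex IV. The protons pumped on the way drive the ATP synthase, in which the catalytic F1 head is joined to the membrane part by a central and a peripheral stalk. Insect flight muscle is rich in these complexes, and ERR, the only fly homolog of the vertebrate estrogen-related receptors, is a nuclear receptor known as a regulator of energy metabolism genes.

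RNA was sequenced from whole bodies of females in 4 groups of 3 libraries, with 10 females per library that were frozen at 7 d past the heat shock, and the study describes the RNA of a genotype as coming from independent experiments. The cond.2 knockout females had lost an FRT-flanked, GFP-tagged *ERR* BAC transgene and were left with the *ERR1* and *ERR2* mutant alleles in trans. The cond.2 controls were siblings with the same alleles and the transgene still in place, and were not heat shocked. In cond.19-4 knockout females most of the coding region of an FRT-flanked endogenous *ERR* had been removed over the *ERR2* deletion, which also takes away parts of *atg18* and *CG7979*. The cond.19-4 controls were siblings that were not heat shocked and carried the same *ERR2* deletion. The females were 0 to 2 d old at the first heat shock of 37 °C, and the second came 24 h later. Every knockout group was therefore also a heat-shocked group, no heat-shocked group without excision was analysed here, and knockout and heat shock cannot be told apart. The columns of the table name the stocks by number only. The stock numbered 2 was read as cond.2 and the other as cond.19-4, a match that the sources used here do not state.

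The libraries held between 17167432 and 20625801 counts assigned to genes. *ERR* itself lay at 9.53, 10.4 and 10.3 CPM (counts relative to the size of the library, adjusted with TMM, the trimmed mean of M values) in cond.2 knockout females, against 8.52, 12.1 and 9.34 CPM in cond.2 controls, so the groups overlapped, and transcripts of the *ERR1* allele could be counted there. In cond.19-4 knockout females *ERR* lay at 4.01, 3.25 and 3.81 CPM, below all 3 cond.19-4 controls at 7.76, 6.38 and 5.62 CPM. Among cond.2 libraries, knockout 1 and control 1 stood farthest apart on the first principal component, at -23.4 and 22.7, so the values of the genes in which either was the highest or lowest library of its group by a wide margin are also given without both. In whole bodies, fewer cells of a type and less RNA per cell cannot be told apart.

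Compared per transcript length (FPKM, which divides CPM by the gene length in kilobases), 13 of the 17 genes had a mean level over the 12 libraries between 325 and 578 FPKM, and 4 lay lower. *CoVa* (COX5A, a subunit on the matrix side of complex IV) had the highest mean at 578 FPKM. It was followed by *CoVIII* (COX8, a small membrane subunit of the same complex) at 539 FPKM and *ATPsyn-Cf6* (coupling factor 6 of the peripheral stalk) at 504 FPKM. Next came *ATPsyn-b* of the peripheral stalk at 474 FPKM and the cytochrome c gene *Cyt-c-p* at 453 FPKM. The levels of *CoVb*, *ATPsyn-beta*, *CoVIIc*, *CoVIb* and *blw* lay between 404 and 437 FPKM. *ATPsyn-d* of the peripheral stalk (353 FPKM), *RFeSP*, the Rieske iron-sulfur protein of complex III (344 FPKM), and *ATPsyn-gamma* of the central stalk (325 FPKM) closed this upper range, in which neighbours overlapped over the 12 libraries.

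The complex I genes among the 17 formed the lower end of their order. This order did not hold for every other subunit. *CG32230* (ND-MLRQ), counted with complex I here by its symbol alone, averaged 705 FPKM, and *l(1)G0230* (ATPsyndelta) of the ATP synthase 82.1 FPKM. The next highest of the other genes counted with complex I, *mtacp1* (ND-ACP), averaged 295 FPKM, below the upper range. *ND23* (the NDUFS8 homolog, an iron-sulfur core subunit) had 184 FPKM, *ND42* (the NDUFA10 homolog, an accessory subunit) 104 FPKM and *ND75* (the NDUFS1 homolog, the largest iron-sulfur core subunit) 88.0 FPKM. The lowest library of *ATPsyn-gamma*, 302 FPKM, lay above the highest of *ND23*, 203 FPKM, and the lowest of *ND23*, 164 FPKM, above the highest of *ND42*, 118 FPKM. *ND42* was above *ND75* in 11 of 12 libraries.

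The last gene in the order was *Cyt-c-d*, the cytochrome c known for its use in the male germline. It had 2, 0 and 1 counts in cond.2 knockout libraries and 0 in each cond.2 control, and 0, 1 and 0 counts in cond.19-4 knockout libraries and 0 in each cond.19-4 control. These 4 counts compare with 71672 for its neighbour *Cyt-c-p*, the cytochrome c of somatic cells. A library with no count allows a level of up to 0.135 to 0.181 CPM (3 counts, counting error only). Of 18 male germ cell markers 8 had no count, among them *dj*, *Mst84Da* and *Mst98Ca*, and the sum of all 18 ranged between 0.101 and 0.487 CPM per library. *Cyt-c-d* was too low to be tested, and each comparison below covers the other 16 genes. Among the 73 other subunits, 22 of 23 genes with a current symbol ending in L, L1 or L2 had fewer than 60 counts in all. This ending names a paralog of another subunit, apart from *CG18624* (ND-MNLL), which had no count. The gene with more counts was *CG34172* (COX7AL2) with 1975.

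**Figure D1:**
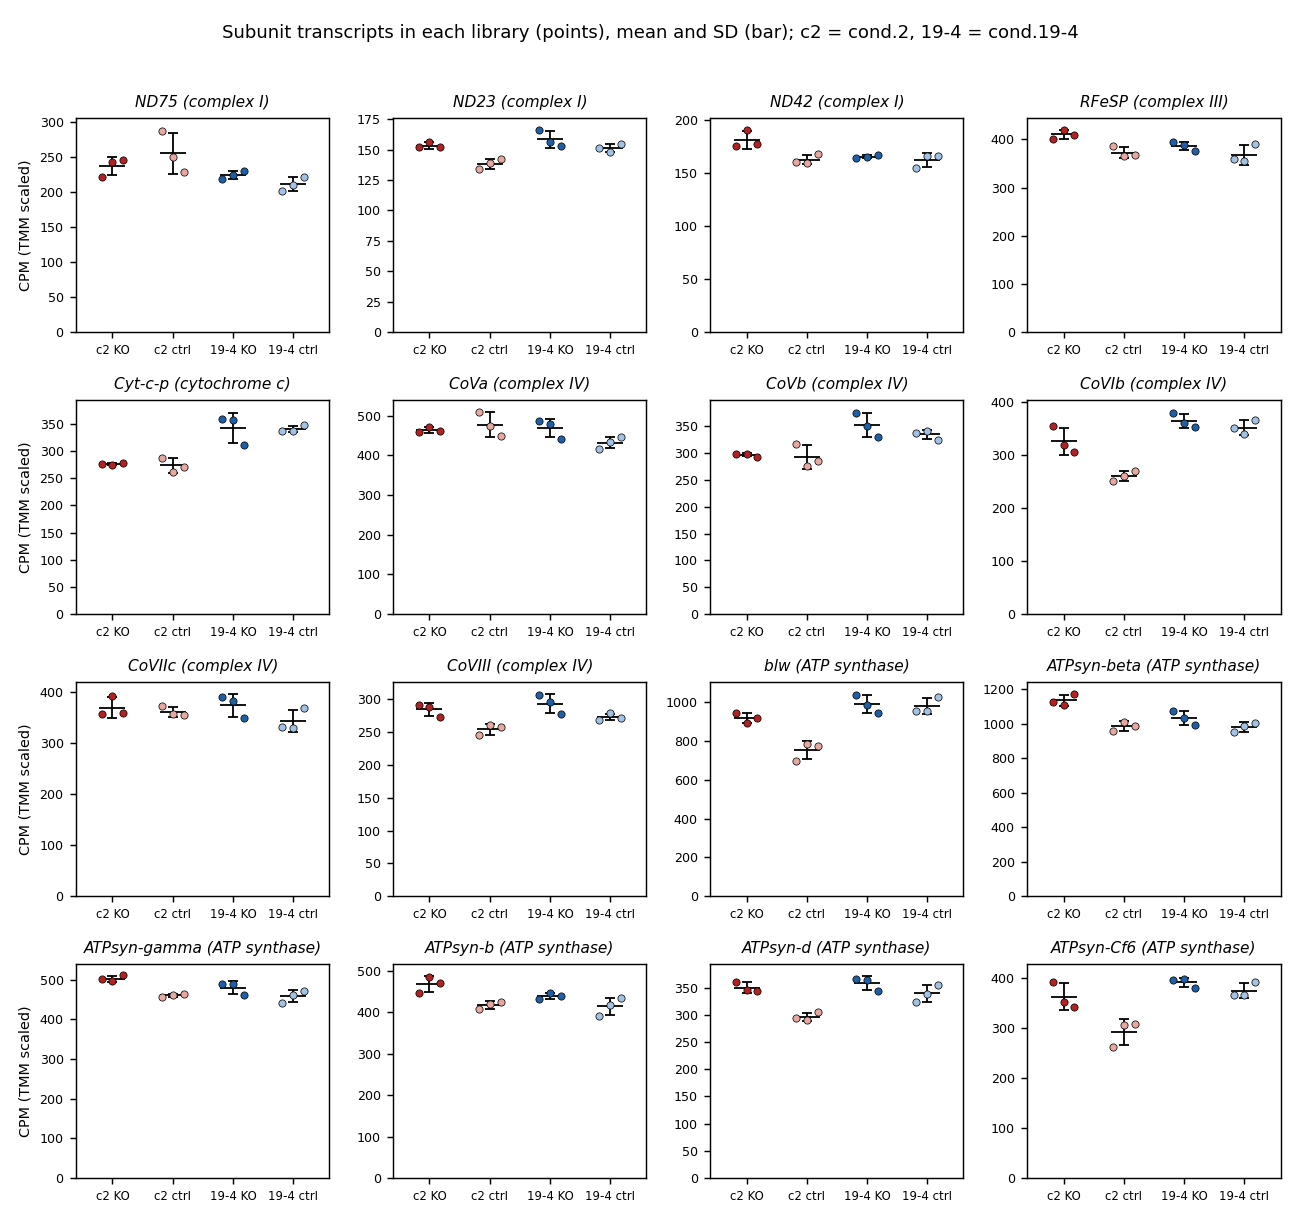
Each panel plots CPM (scaled by TMM over 12 libraries, axis from 0) of 1 gene, with a point per library and a bar for the mean and SD of 3 libraries; c2 stands for cond.2 and 19-4 for cond.19-4. The 6 ATP synthase genes shown lie higher in cond.2 knockout libraries than in cond.2 controls without overlap, while the cond.19-4 groups overlap for every gene.

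The first comparison asked whether the subunit transcripts depended on *ERR* in cond.2 females. None of the 16 genes passed the threshold in cond.2 knockout females (0 lower and 0 higher, quasi-likelihood test of edgeR, adjusted p under 0.05), where 0.631% of all 9660 genes did, 0.466% lower and 0.166% higher. Of the 16, 5 had an unadjusted p under 0.05, against 22.4% of all genes, and DESeq2 called 1, *CoVIb*, against 6.56% of all genes. In a fit of all 12 libraries, which share 1 estimate of the spread, these 5 genes were called higher (adjusted p between 0.0124 and 0.0326 by edgeR), where 1414 of all genes were called. The 95% intervals of the 16 fold changes ran between 0.781 and 1.46, so larger changes than these were outside every interval. The estimates were positive for 14 genes, with a median log2 fold change of 0.14, where the median over all genes was -0.01 and 49.1% were positive. For 11 of the 16 every knockout library lay above every control, a share of 68.8% beside 16.7% of all genes, and for 0 every knockout library lay below, beside 13.8% (30.5% of all genes were free of overlap in either direction).

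The ATP synthase genes accounted for 6 of those 11. The catalytic head is built of alpha subunits, encoded by *blw*, and beta subunits, encoded by *ATPsyn-beta*. *blw* (FBgn0011211, 2R:22799099-22802180) had 943, 892 and 917 CPM in cond.2 knockout females, against 699, 784 and 775 CPM in cond.2 controls. *ATPsyn-beta* (FBgn0010217, 4:1031484-1034917) had 1128, 1111 and 1174 CPM in cond.2 knockout females, against 956, 1014 and 990.2 CPM in cond.2 controls. For both genes the groups were apart, and for *blw* control 1 was the lowest library. The log2 fold change was 0.28 ± 0.09 (SE) for *blw* and 0.20 ± 0.08 for *ATPsyn-beta*, with adjusted p = 0.158 and 0.212 by edgeR. Without libraries 1 of both groups it was 0.20 for *blw* and 0.18 for *ATPsyn-beta*.

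Of the stalk genes, *ATPsyn-Cf6* (FBgn0016119, 3R:23355220-23356064) had 392, 352 and 343 CPM in cond.2 knockout females, against 261, 306 and 308 CPM in cond.2 controls. *ATPsyn-d* (FBgn0016120, 3R:19095000-19096271) had 361, 345 and 343 CPM in cond.2 knockout females, against 294, 289.7 and 304 CPM in cond.2 controls. Knockout 1 was the highest library for both genes, and the distance between the groups was wider than within them for *ATPsyn-d*. The log2 fold changes were 0.30 ± 0.10 for *ATPsyn-Cf6* and 0.23 ± 0.07 for *ATPsyn-d* (SE), with adjusted p = 0.168 and 0.157 by edgeR. Without libraries 1 of both groups they were 0.17 for *ATPsyn-Cf6* and 0.20 for *ATPsyn-d*. *ATPsyn-b* averaged 468 ± 19.8 CPM in cond.2 knockout females and 418 ± 9.35 CPM in cond.2 controls, and *ATPsyn-gamma* 502 ± 7.65 and 460.0 ± 4.72 CPM in the same order of groups (SD, n = 3 each). These differences of 0.16 and 0.12 on the log2 scale had the adjusted p-values 0.275 and 0.361 by edgeR. Together these 6 ATP synthase genes held 3772, 3682 and 3758 CPM in cond.2 knockout females, against 3073, 3273 and 3269 CPM in cond.2 controls. The ATP synthase genes among the other subunits held 4377, 4168 and 4008 CPM in cond.2 knockout females, against 3375, 3662 and 3678 CPM in cond.2 controls. In that sum *CG1746* alone had 2314, 2079 and 2007 CPM, against 1460, 1720 and 1748 CPM in cond.2 controls. Of the 7 tested there, 4 lay above every control (beside 16.7% of all genes), 2 had negative estimates, and the median log2 fold change was 0.07.

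The complex IV genes differed among themselves. *CoVIb* (COX6B, which sits on the intermembrane side of the complex, FBgn0031066, X:19740537-19744335) had 355, 318 and 305 CPM in cond.2 knockout females, against 251, 260.1 and 270.4 CPM in cond.2 controls. Its log2 fold change of 0.31 ± 0.09 (SE) was the largest of the 16, with adjusted p = 0.135 by edgeR and 0.0495 by DESeq2, and without libraries 1 of both groups it was 0.22. The span of *CoVIb* shares 81.9% of its length with *CG18809* on the same strand, so reads of these overlapping genes may not be separable. *CoVIII* had 292, 289 and 273 CPM in cond.2 knockout females, against 245, 260.2 and 258 CPM in cond.2 controls, a log2 fold change of 0.15 ± 0.07 (SE) with adjusted p = 0.258 by edgeR. In both genes the lowest knockout library was above the highest control.

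The other complex IV genes lay close together in both groups. *CoVa* averaged 463 ± 7.15 CPM in cond.2 knockout females and 477 ± 30.9 CPM in cond.2 controls, *CoVb* (COX5B, a zinc-binding subunit) 296 ± 2.82 and 292 ± 22.4 CPM, and *CoVIIc* (COX7C, a small membrane subunit) 369 ± 20.7 and 362 ± 9.98 CPM in the same order of groups (SD, n = 3 each). Their log2 fold changes were -0.05, 0.01 and 0.02, with the adjusted p-values 0.743, 0.946 and 0.8996 by edgeR. The groups overlapped in each of them.

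*Cyt-c-p* had 276, 274 and 277 CPM in cond.2 knockout females, against 288, 261 and 272 CPM in cond.2 controls (log2 fold change 0.00 ± 0.07, SE, adjusted p = 0.984 by edgeR). The knockout libraries fell inside the range of the controls. *RFeSP* (FBgn0021906, 2L:1612429-1614160) had 402, 420.4 and 409 CPM in cond.2 knockout females, against 386, 365 and 367 CPM in cond.2 controls, which left the groups apart (log2 fold change 0.13 ± 0.07, SE, adjusted p = 0.316 by edgeR). In complex I, *ND23* had 152, 156 and 152 CPM in cond.2 knockout females, against 134, 139 and 142 CPM in cond.2 controls. *ND42* had 176, 191 and 177 CPM in cond.2 knockout females, against 161, 159.9 and 168 CPM in cond.2 controls. Both genes were higher in each knockout library than in each control, with log2 fold changes of 0.14 ± 0.07 and 0.15 ± 0.07 (SE) and adjusted p = 0.248 and 0.265 by edgeR.

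*ND75* (FBgn0017566, X:8248651-8251687) was 1 of 2 genes with a negative estimate, beside *CoVa*. It had 222, 243 and 245 CPM in cond.2 knockout females, against 287, 249.6 and 229 CPM in cond.2 controls. The groups overlapped, and control 1 was the highest of the 6 libraries. The log2 fold change was -0.12 ± 0.10 (SE, adjusted p = 0.527 by edgeR), and without libraries 1 of both groups it was 0.02.

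Markers of some other tissues moved with the cond.2 groups, while the sums of the germline and midgut markers overlapped. The vitelline membrane genes of ovarian follicle cells summed to 15649, 12616 and 7959 CPM in cond.2 knockout females, against 2868, 6234 and 4649 CPM in cond.2 controls. The 3 yolk protein genes summed to 29292, 38781 and 49892 CPM in cond.2 knockout females, against 98591, 57671 and 88209.5 CPM in cond.2 controls, and neither list overlapped between the groups. EdgeR called 0 of 6 vitelline membrane and 0 of 3 yolk protein genes, beside 0.631% of all genes, and DESeq2 called 6 and 2, beside 6.56%. Germline markers summed to between 2624 and 2824 CPM in cond.2 knockout females and to between 2772 and 2863 CPM in cond.2 controls. Midgut markers summed to between 9008 and 9535 CPM and to between 9218 and 10243.5 CPM in the same order. Single markers did differ. Of 13 tested germline markers edgeR called 1 lower, 4 had an unadjusted p under 0.05 and DESeq2 called 3. For 3 of the 13 every knockout library lay above every control, and for 3 below. Of 10 midgut markers edgeR called 0, 4 had an unadjusted p under 0.05 and DESeq2 called 1. Fat body markers summed to between 1195 and 1821 CPM in cond.2 knockout females and to between 1884 and 3499 CPM in cond.2 controls. Of 6 tested fat body markers 0 were called by edgeR, 5 had an unadjusted p under 0.05 (beside 22.4% of all genes) and DESeq2 called 4. The sum of the 16 flight muscle markers ranged between 1062 and 1111 CPM in cond.2 knockout females and between 911 and 1031 CPM in cond.2 controls, with 0 of 15 tested markers called by edgeR, 7 at an unadjusted p under 0.05 and 2 called by DESeq2. Their part in the values of the subunit genes was not tested.

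The second comparison put the same question to cond.19-4 females. None of the 16 genes passed the threshold in cond.19-4 knockout females (0 lower and 0 higher by edgeR, where 3.7% of all 9717 genes did, 1.04% lower and 2.67% higher). At an unadjusted p under 0.05 there were 3, *CoVa*, *CoVIIc* and *CoVIII*, against 15.4% of all genes, and DESeq2 called 0, against 4.39% of all genes. All 16 estimates were positive, with a median log2 fold change of 0.08, where the median over all genes was -0.00 and 48.9% were positive. The 95% intervals of the fold changes ran between 0.928 and 1.19. For 0 of the 16 did all knockout libraries lie above all controls, beside 10.3% of all genes (20.4% in either direction), and for 0 did they lie below, beside 10.1%. With total counts as library sizes, the knockout libraries lay above all controls for 8 of the 16 and 9.96% of all genes.

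*CoVa*, *CoVIIc* and *CoVIII* of complex IV had the lowest p-values. *CoVa* (FBgn0019624, 3R:11819359-11820299) had 485, 479.7 and 441 CPM in cond.19-4 knockout females, against 416, 434 and 445 CPM in cond.19-4 controls. *CoVIIc* (FBgn0040773, 2R:10048353-10050066) had 391, 383 and 349 CPM in cond.19-4 knockout females, against 332, 330.2 and 368 CPM in cond.19-4 controls. *CoVIII* (FBgn0263911, 3L:21538859-21539447) had 307, 296 and 278 CPM in cond.19-4 knockout females, against 269, 279 and 271 CPM in cond.19-4 controls. In each gene knockout 3 was the lowest knockout library and lay below the highest control. The log2 fold changes were 0.12 ± 0.05, 0.13 ± 0.06 and 0.11 ± 0.05 (SE), with adjusted p = 0.241, 0.297 and 0.281 by edgeR. Part of *CoVIIc*, 15.6% of its span, overlaps *oys* on the other strand.

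The ATP synthase genes chosen by name, which were apart in the other stock, overlapped here. *blw* had 1037, 988 and 947 CPM in cond.19-4 knockout females, against 957, 955 and 1027 CPM in cond.19-4 controls, with a log2 fold change of 0.02 ± 0.05 (SE, adjusted p = 0.888 by edgeR). *ATPsyn-Cf6* had 395, 398 and 380.1 CPM in cond.19-4 knockout females, against 366, 365 and 391 CPM in cond.19-4 controls, with a log2 fold change of 0.07 ± 0.04 (SE, adjusted p = 0.523 by edgeR). *CoVIb* of complex IV had 379, 361 and 353 CPM in cond.19-4 knockout females, against 351, 339.6 and 366 CPM in cond.19-4 controls, with a log2 fold change of 0.05 ± 0.05 (SE, adjusted p = 0.644 by edgeR). For each of these 3 genes, control 3 was the highest control.

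The remaining genes followed the same course. *ATPsyn-beta*, *ATPsyn-gamma*, *ATPsyn-b* and *ATPsyn-d* had log2 fold changes between 0.07 and 0.09 with adjusted p-values between 0.414 and 0.504 by edgeR. *ND75* averaged 224 ± 5.86 CPM in cond.19-4 knockout females and 211 ± 10.1 CPM in cond.19-4 controls, *ND23* 159 ± 6.88 and 151 ± 3.38 CPM, and *ND42* 166 ± 1.72 and 163 ± 6.29 CPM in the same order of groups (SD, n = 3 each). *RFeSP* averaged 386 ± 8.83 CPM in cond.19-4 knockout females and 368 ± 20.0 CPM in cond.19-4 controls, *Cyt-c-p* 343 ± 27.7 and 341 ± 6.04 CPM, and *CoVb* 352 ± 22.2 and 335 ± 8.99 CPM in the same order of groups. Summed over the 17 genes, the level was 7033, 6878 and 6555 CPM in cond.19-4 knockout females, against 6342, 6468 and 6739 CPM in cond.19-4 controls. Knockout 3 was inside the range of the controls.

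Flight muscle genes moved in this stock too. Of 15 tested flight muscle markers 4 rose in cond.19-4 knockout females by edgeR, namely *Mhc* (myosin heavy chain), *TpnC4* (a troponin C), *Tm2* (tropomyosin) and *Mlc2* (myosin light chain), and 0 fell, beside 2.67% of all genes that rose. At an unadjusted p under 0.05 there were 10 of the 15, beside 15.4% of all genes, and DESeq2 called 5, beside 4.39%. The sum of all 16 markers was 1249.8, 1206 and 1163 CPM in cond.19-4 knockout females, against 1142, 1009.9 and 1066 CPM in cond.19-4 controls. Control 1 was the highest control for these markers and the lowest for the summed subunit genes. Midgut markers summed to between 9646 and 9839 CPM in cond.19-4 knockout females and to between 10733 and 13407 CPM in cond.19-4 controls. The 10 midgut markers did not all move one way. EdgeR called 3 lower and 1 higher, beside 1.04% and 2.67% of all genes, and 4 estimates were positive. Of 6 tested fat body markers 2 rose by edgeR, beside 2.67% of all genes. Their part in the values of the subunit genes was not tested.

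**Figure D2:**
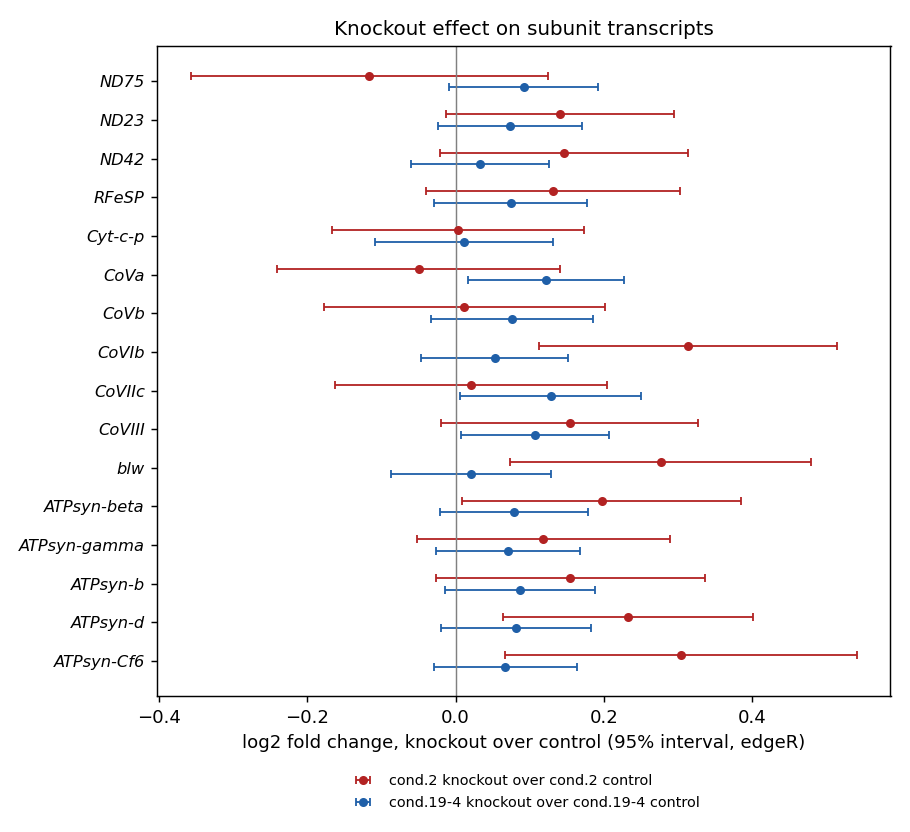
Points give the log2 fold change of knockout over control for each of the 16 tested genes and lines its 95% interval (edgeR), in red for cond.2 and in blue for cond.19-4. Cond.2 estimates spread between -0.12 and 0.31 and cond.19-4 estimates between 0.01 and 0.13, and the intervals of 5 genes in cond.2 and 3 in cond.19-4 leave out 0 before adjustment.

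A test of the difference between the knockout effects (cond.2 minus cond.19-4, interaction in a fit of all 12 libraries) passed for 0 of the 16 genes by edgeR, where 0.0598% of 10029 genes passed. The differences were positive for 12 of 16, beside 49.6% of all genes. At an unadjusted p under 0.05 there were 3, against 22.2% of all genes, and DESeq2 called 0, against 5.46% of all genes. These 3 were *blw*, with a difference of 0.27 ± 0.09 on the log2 scale (SE, adjusted p = 0.139 by edgeR), *CoVIb*, with 0.27 ± 0.09 (adjusted p = 0.141), and *ATPsyn-Cf6*, with 0.25 ± 0.11 (adjusted p = 0.203). *ND75* and *CoVa* had the lowest differences, -0.20 ± 0.11 and -0.16 ± 0.09 (SE), with adjusted p = 0.318 and 0.305 by edgeR. Without libraries 1 of both cond.2 groups the differences were 0.20 for *blw*, 0.18 for *CoVIb*, 0.11 for *ATPsyn-Cf6*, -0.06 for *ND75* and -0.10 for *CoVa*. A difference between the stocks in the response of any single subunit gene was not shown.

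**Figure D3:**
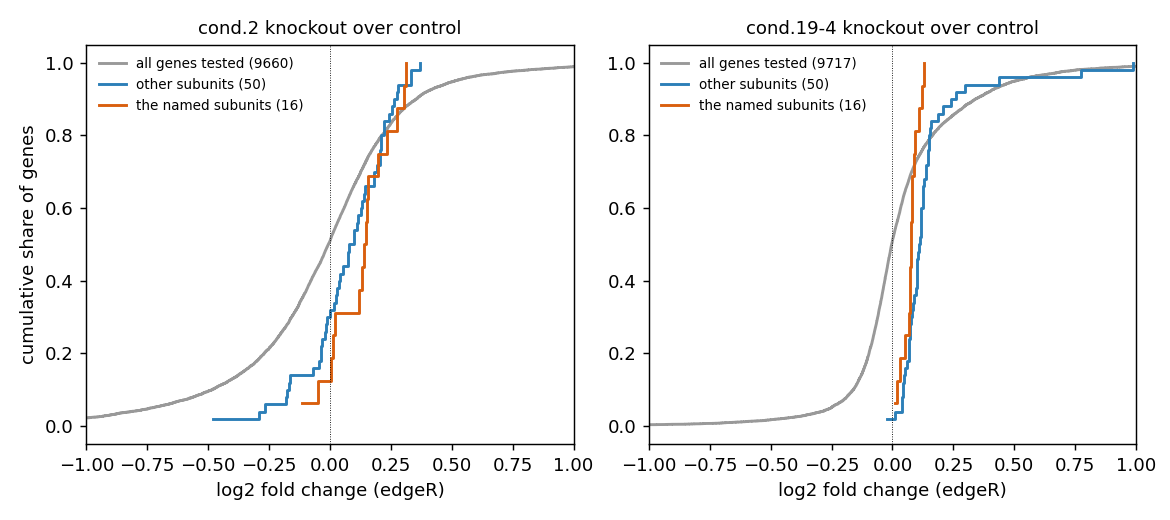
Curves give the cumulative share of genes (vertical axis) up to a log2 fold change of knockout over control (horizontal axis, edgeR), for cond.2 on the left and cond.19-4 on the right; grey is all genes tested, blue the 50 other tested subunits and orange the 16 genes. The orange curves cross 0.5 at medians of 0.14 and 0.08, right of the grey curves, and rise within a narrower range.

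The third comparison concerned the controls, which were never heat shocked and differed in stock, and asked how the levels compare before any excision. In cond.2 controls 6 of the 16 genes were lower and 1 was higher than in cond.19-4 controls by edgeR. This share of 43.8% stood beside 46.9% of all 10029 genes, of which 24.2% were lower and 22.7% higher, so it was near the share of all genes. DESeq2 called 7 of the 16 and 47.1% of all genes, and at an unadjusted p under 0.05 there were 9 of the 16 and 53.7% of all genes. Groups were free of overlap for 10 of the 16 genes, 8 below and 2 above, beside 56.5% of all genes, of which 29.4% were below and 27% above.

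Some tissue markers differed between these controls as well, where 24.2% of all genes were lower and 22.7% higher by edgeR. By edgeR, 6 of 6 vitelline membrane markers were lower in cond.2 controls (median log2 fold change -1.96), while 3 of 3 yolk protein genes (median 1.41) and 4 of 6 fat body markers (median 1.14) were higher. Germline markers (6 of 14 lower and 3 higher) and midgut markers (5 of 10 lower and 3 higher) went both ways. Of 15 flight muscle markers 4 were lower and 1 was higher, a share of 33.3% beside 46.9% of all genes. Their part in the values of the subunit genes was not tested.

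Among the 16 subunit genes, *CoVIb*, *blw* and *ATPsyn-Cf6* had the largest differences. *CoVIb* lay at 251, 260.1 and 270.4 CPM in cond.2 controls, against 351, 339.6 and 366 CPM in cond.19-4 controls, a log2 fold change of -0.43 ± 0.07 (SE, adjusted p = 3.06e-04 by edgeR). *blw* lay at 699, 784 and 775 CPM in cond.2 controls, against 957, 955 and 1027 CPM in cond.19-4 controls, a log2 fold change of -0.38 ± 0.06 (SE, adjusted p = 5.76e-04 by edgeR). *ATPsyn-Cf6* lay at 261, 306 and 308 CPM in cond.2 controls, against 366, 365 and 391 CPM in cond.19-4 controls, a log2 fold change of -0.36 ± 0.08 (SE, adjusted p = 0.00233 by edgeR). The 2 sets of controls did not overlap in any of them. The cond.2 controls entered both this comparison and that of the cond.2 knockouts, so the log2 fold changes of 0.31, 0.28 and 0.30 found there for *CoVIb*, *blw* and *ATPsyn-Cf6* rest on the same 3 libraries.

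*Cyt-c-p* (FBgn0000409, 2L:16719932-16722644) was lower by a log2 fold change of -0.32 ± 0.07 (SE, adjusted p = 0.00196 by edgeR), with 288, 261 and 272 CPM in cond.2 controls, against 337, 337 and 348 CPM in cond.19-4 controls. The knockout females, whose difference was not tested, had 276, 274 and 277 CPM in the cond.2 stock and 359, 358 and 311 CPM in the cond.19-4 stock, again without overlap. *ATPsyn-d* and *CoVb* were lower by smaller amounts, -0.20 ± 0.06 (adjusted p = 0.0125 by edgeR) and -0.19 ± 0.07 (adjusted p = 0.0310). Both calls were lost in a fit of the 6 control libraries alone, at adjusted p = 0.0551 and 0.0964. *ATPsyn-d* also lost its call without cond.2 control 2 (adjusted p = 0.0502) or cond.19-4 control 3 (adjusted p = 0.0562 by edgeR). *CoVb* lost it without any one of cond.2 knockout 2, cond.2 controls 2 and 3, cond.19-4 knockout 2 and cond.19-4 controls 1 and 2 (adjusted p between 0.0529 and 0.1504 by edgeR). *ND75* was the 1 gene that was higher, with 287, 249.6 and 229 CPM in cond.2 controls, against 201, 210.0 and 221 CPM in cond.19-4 controls (log2 fold change 0.27 ± 0.08, SE, adjusted p = 0.0146 by edgeR). The groups were apart by a small margin, cond.2 control 1 was the highest library, and with total counts as library sizes the value was 0.10 and no longer called. Without cond.19-4 control 1 it was 0.26 with adjusted p = 0.0546 by edgeR.

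The other 9 genes did not pass the test. *ATPsyn-beta*, *ATPsyn-gamma*, *ATPsyn-b*, *ND42* and *RFeSP* had log2 fold changes between 0.00 and 0.02, with adjusted p-values between 0.812 and 0.964 by edgeR, while *ND23* (-0.13), *CoVIII* (-0.10), *CoVIIc* (0.08) and *CoVa* (0.14) lay farther from 0. Without cond.2 control 3, *CoVa* was at 0.21 with adjusted p = 0.0224 by edgeR. With total counts as library sizes *ND23* was called lower at -0.30 (adjusted p = 0.00355 by edgeR) and *CoVIII* at -0.27 (adjusted p = 0.00985). The ATP synthase was thus split in this contrast: *blw*, *ATPsyn-Cf6* and *ATPsyn-d* were lower in cond.2 controls, and the intervals of *ATPsyn-beta*, *ATPsyn-gamma* and *ATPsyn-b* ran between -0.11 and 0.14. With total counts as library sizes the last 3 had values of -0.16, -0.16 and -0.15, where the median of all genes was -0.19 in place of -0.02.

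**Figure D4:**
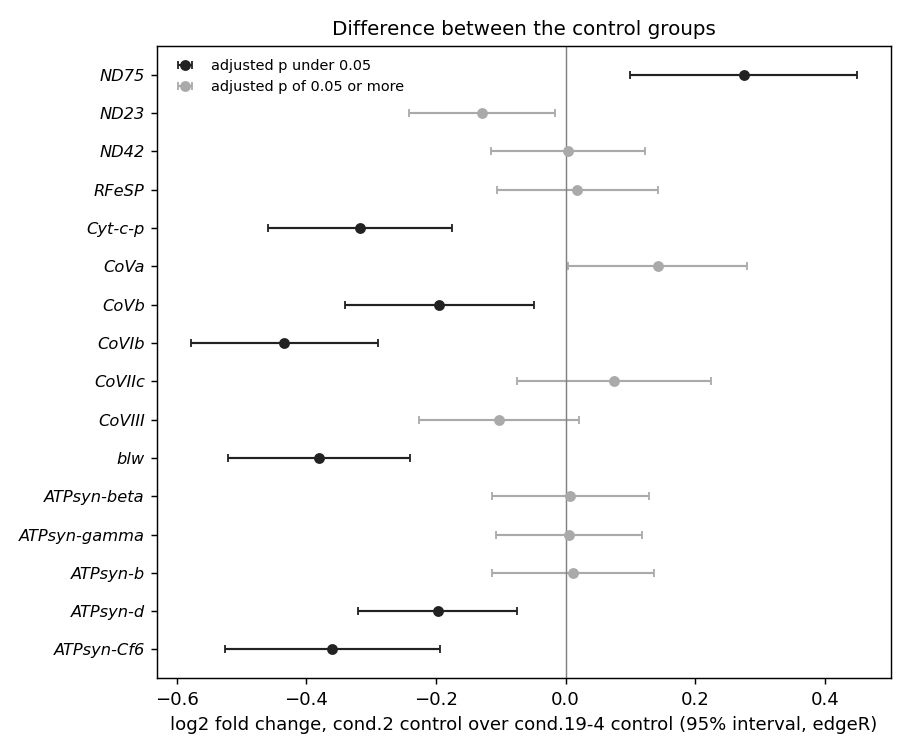
Points give the log2 fold change of cond.2 control over cond.19-4 control for each of the 16 tested genes and lines its 95% interval (edgeR, 12 libraries); black marks an adjusted p under 0.05 and grey the others. Black points are *ND75* at 0.27 on the right and *Cyt-c-p*, *CoVb*, *CoVIb*, *blw*, *ATPsyn-d* and *ATPsyn-Cf6* between -0.43 and -0.19 on the left.

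Ratios of 2 subunits within a library do not depend on how libraries are scaled, and 4 pairs were chosen for this after the values had been seen, so they are given as a description. The F1 subunits alpha and beta are assembled in equal number. Their transcripts, *blw* over *ATPsyn-beta* in counts per bp, had the ratios 0.886, 0.851 and 0.827 in cond.2 knockout females and 0.774, 0.819 and 0.830 in cond.2 controls, which overlapped. In cond.19-4 females the ratios were 1.02, 1.01 and 1.01 in knockouts and 1.06, 1.02 and 1.08 in controls, above every cond.2 library, and before rounding every knockout was below every control. The ratio of *ATPsyn-Cf6* over *ATPsyn-b*, both of the peripheral stalk, was 0.834, 0.949 and 0.944 in cond.2 controls, below the 1.22, 1.14 and 1.18 of cond.19-4 controls. Among knockouts the stocks overlapped, with 1.15, 0.945 and 0.948 in cond.2 and 1.19, 1.16 and 1.13 in cond.19-4.

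*CoVIb* over *CoVa* within complex IV had the ratios 0.782, 0.681 and 0.669 in cond.2 knockout females, above all 3 cond.2 controls at 0.498, 0.555 and 0.609. In cond.19-4 females the ratios overlapped, with 0.788, 0.758 and 0.806 in knockouts and 0.849, 0.789 and 0.829 in controls. *ND75* over *ND23* within complex I was 0.454, 0.483 and 0.502 in cond.2 knockout females, against 0.666, 0.559 and 0.501 in cond.2 controls, an overlap that rests on control 3. In cond.19-4 females it was 0.408, 0.445 and 0.467 in knockouts and 0.415, 0.441 and 0.445 in controls. With 3 libraries against 3, an exact permutation test cannot give a two-sided p below 0.1, and no test of these ratios was made.

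**Figure D5:**
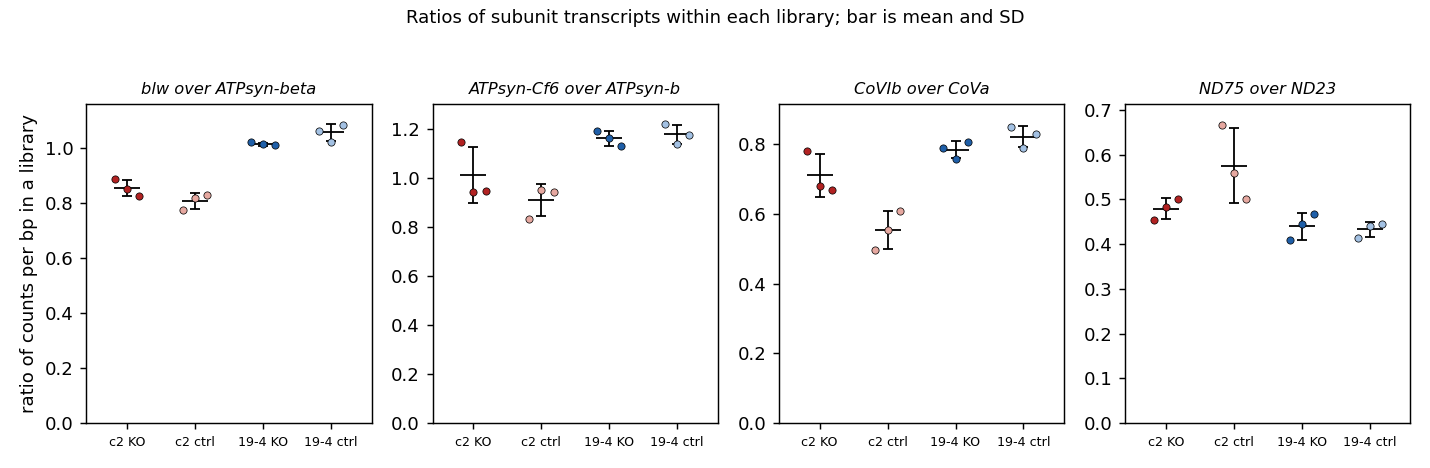
Each panel plots the ratio of counts per bp of 2 subunit genes in a library (axis from 0), with a point per library and a bar for the mean and SD of 3 libraries; c2 stands for cond.2 and 19-4 for cond.19-4. For *blw* over *ATPsyn-beta* all cond.2 points lie at or below 0.886 and all cond.19-4 points at or above 1.01.

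The other nuclear subunits were counted in the same way. Of the 73, 50 could be tested. In cond.2 knockout females edgeR called 0 of them, 14 had an unadjusted p under 0.05 (beside 22.4% of all genes) and DESeq2 called 2 (beside 6.56%), *CG1746* (ATPsynC, the ring subunit of the membrane part) and *CG7712* (ND-B14, an accessory subunit of complex I). In cond.19-4 knockout females edgeR called 0, 19 had an unadjusted p under 0.05 (beside 15.4% of all genes) and DESeq2 called 2 (beside 4.39%), *CG4769* (Cyt-c1, cytochrome c1 of complex III) and *CG15434* (ND-B8, an accessory subunit of complex I). The estimates were positive for 35 of 50 in cond.2 and for 49 of 50 in cond.19-4, with median log2 fold changes of 0.09 and 0.11. With all 12 libraries in 1 fit 12 of the 50 were called in cond.2, and without cond.19-4 knockout 3 or control 3 edgeR called 9 or 1 of them in cond.19-4. Every knockout library lay above every control for 20 of 50 in cond.2, beside 16.7% of all genes, and for 11 of 50 in cond.19-4, beside 10.3%. Among the 16 genes chosen by name this held for 11 in cond.2 and for 0 in cond.19-4.

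A single one of the 50 lay below all cond.2 controls in all cond.2 knockout libraries, *CG12400* (ND-B14.5B, an accessory subunit of complex I), with a log2 fold change of -0.48 and adjusted p = 0.160 by edgeR. *CG1746* had 2314, 2079 and 2007 CPM in cond.2 knockout females, against 1459.6, 1720.2 and 1748 CPM in cond.2 controls. Its log2 fold change was 0.37 ± 0.11 (SE), with adjusted p = 0.154 by edgeR. Like *blw*, it was lower in cond.2 controls than in cond.19-4 controls, by a log2 fold change of -0.55 ± 0.08 (SE, adjusted p = 2.12e-04 by edgeR). *CG4169* (UQCR-C2, a core protein of complex III) differed the other way, by 0.75 (adjusted p = 2.19e-04 by edgeR). Of the 50, 13 were lower and 9 higher between the controls, a share of 44% beside 46.9% of all genes, and DESeq2 called 24, beside 47.1% of all genes.

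The 5 core subunits of complex I that are not among the 17 had log2 fold changes between 0.08 and 0.12 in cond.19-4 knockout females, each with all knockout libraries above all controls, beside 10.3% of all genes. In cond.2 this held for 2 of the 5, beside 16.7% of all genes, and 1 had an unadjusted p under 0.05. In cond.19-4 edgeR and DESeq2 called 0 of the 5, and 4 had an unadjusted p under 0.05. Of the 73, 9 had no count in any library. Among these was *CG3560* (UQCR-14), which lies wholly inside the span of *CG32576*, a gene on the other strand with 5832 counts in all. Another was *CG18624* (ND-MNLL), which lies wholly inside *CG45089*, a gene on the same strand that also had no count. Reads of such overlapping genes may not be separable.

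Pathway genes around the chain were counted in the same fits. Of all genes, edgeR called 0.631% in cond.2 knockout females, 22.4% had an unadjusted p under 0.05 and DESeq2 called 6.56%. In cond.19-4 knockout females these shares were 3.7%, 15.4% and 4.39%. Between the controls edgeR called 24.2% of all genes lower and 22.7% higher. Of the complex II genes, 4 could be tested. In both knockout comparisons edgeR called 0 of 4, with 2 at an unadjusted p under 0.05 each and 0 called by DESeq2, and between the controls 1, *SdhA* (the flavoprotein subunit), was lower, by -0.40 on the log2 scale. Of the subunits encoded by the mitochondrial genome 0 of 11 were called in cond.2 knockout females and 0 of 12 in cond.19-4 knockout females by edgeR, with 0 and 2 at an unadjusted p under 0.05 and 0 called by DESeq2 in each. Between the controls 4 of 11 were lower and 0 higher. Among TCA cycle genes edgeR called 0 of 18 in cond.2 knockout females, with 8 at an unadjusted p under 0.05 and 3 called by DESeq2.

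In cond.19-4 knockout females 2 of 17 TCA cycle genes rose, *CG1544* (log2 fold change 0.51, adjusted p = 0.0150 by edgeR) and *Nc73EF* (0.21, adjusted p = 0.0154), of which *Nc73EF* encodes a 2-oxoglutarate dehydrogenase subunit. Of all genes 2.67% rose there. Of 6 carriers of adenine nucleotides and phosphate, 0 were called in cond.2 knockout females by edgeR, beside 0.631% of all genes. There 1 had an unadjusted p under 0.05 (beside 22.4%) and 1 was called by DESeq2 (beside 6.56%). In cond.19-4 knockout females 1 of the 6 rose, the phosphate carrier gene *CG9090*, with a log2 fold change of 0.46 (adjusted p = 0.00413 by edgeR). Of 10 assembly genes, edgeR and DESeq2 called 0 in each knockout comparison. At an unadjusted p under 0.05 there were 3 in cond.2, beside 22.4% of all genes, and 1 in cond.19-4, beside 15.4%.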

How the data were processed

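Whole-body RNA of 12 libraries was analysed. The deposited table holds counts of reads per gene without normalization. The authors aligned 150 bp paired reads to an Ensembl reference with TopHat and counted them with HTSeq, and for neither step are the version, the genome build or the use of strand given in the sources used here. Of 17558 identifiers 17252 were found in Ensembl release 115 (BDGP6), and 16 of the 17 genes had the same coordinates there.

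The quasi-likelihood test of edgeR 4.0.16 (R 4.3.3, TMM, filterByExpr with a minimum count of 10) was fitted for each stock on its own 6 libraries, and for the interaction and the control difference on all 12. P-values were two-sided, the Benjamini-Hochberg adjustment covered every gene tested, and the threshold was 0.05. DESeq2 1.42.0, other scalings, filters and sample sets were alternatives. CPM and FPKM used TMM factors over 12 libraries and the deposited gene length. Scripts were tested on simulated counts. Python 3.11.15 with pandas 2.3.3, matplotlib 3.10.9 and numpy 2.4.6 drew the figures.

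The genes and lists were chosen with earlier results of these data known. By a rule, the text named the highest FPKM genes of each complex, up to 4 genes with the lowest p per comparison, up to 6 per side of the control difference, paralog pairs and up to 3 genes of other lists. All 17 genes were then described.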

Additional observations from a re-analysis of the deposited data

How the results depend on the processing

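The 3 libraries per group and their depth limit what could be called, and p-values measure the spread between these libraries. In cond.2 knockout females the number of subunit genes called higher was 0, 1 with DESeq2 (*CoVIb*) and 5 with all 12 libraries in 1 fit (*CoVIb*, *blw*, *ATPsyn-d*, *ATPsyn-Cf6* and *ATPsyn-beta*, adjusted p between 0.0124 and 0.0326 by edgeR), where that fit called 1414 of all genes in place of 61; the cause was not tested. With DESeq2 572 of all genes were called. In cond.19-4 knockout females the genes with every knockout library above every control numbered 8 with total counts and 1 when scaled over the 6 libraries of the stock, an alternative chosen after seeing the data, in place of 0. Between the controls 8 genes were called lower with total counts, in place of 6, and 0 higher, in place of 1. Leaving out 1 library at a time gave 0 calls in both knockout comparisons and the interaction, and between the controls 4 to 6 lower and 0 to 2 higher, while calls over all genes ranged between 15 and 44 in cond.2, 224 and 420 in cond.19-4 and 1 and 489 in the interaction.

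Single genes close to 0 changed sign. In cond.2 *CoVa* was at 0.042 with total counts and 0.0061 without libraries 1 of both groups, where *ND75* was at 0.019. In the interaction *CoVb* was at 0.041 and 0.0034 under these settings, and *Cyt-c-p* at -0.0041 with DESeq2, -0.0041 with its size factors and -0.0034 with every gene. Between the controls total counts gave -0.16 for *ATPsyn-beta*, -0.16 for *ATPsyn-gamma*, -0.028 for *CoVa*, -0.15 for *ATPsyn-b*, -0.15 for *RFeSP*, -0.094 for *CoVIIc* and -0.16 for *ND42*. With 1 library left out, values in cond.2 ran between -0.025 and 0.041 for *CoVIIc*, -0.030 and 0.071 for *CoVb* and -0.029 and 0.037 for *Cyt-c-p*. In cond.19-4 they ran between -0.012 and 0.054 for *blw* and -0.022 and 0.076 for *Cyt-c-p*, and in the interaction between -0.10 and 0.0063 for *CoVb* and -0.063 and 0.037 for *Cyt-c-p*. Between the controls they ran between -0.0015 and 0.042 for *ATPsyn-beta*, -0.0085 and 0.028 for *ATPsyn-gamma*, -0.015 and 0.046 for *ATPsyn-b*, -0.0081 and 0.064 for *RFeSP* and -0.016 and 0.029 for *ND42*.

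Replicate numbers were not taken to pair libraries, since deviations of same-numbered libraries correlated at -0.471, -0.282 and -0.0356 in cond.2 and at -0.0138, 0.0714 and -0.00442 in cond.19-4. A replicate block changed the call of 0 subunit genes and gave 9 calls over all genes in cond.2, where there were 61 without it, and 1 in the interaction, where there were 6; among the 50 other subunits it called 3 in cond.19-4, and keeping every gene called 5, in place of 0.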
